A study of Mus musculus with 4 samples.

Results

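Arterial-marker endothelial cells of the mouse lung were 154 of the 10292 barcodes in the CD45-negative libraries, and of the 25315 barcodes in the series. They were chosen by the detection of transcripts in each cell. Each had a UMI (a uniquely tagged RNA molecule) of Pecam1 or Cdh5, none of the leukocyte gene Ptprc or the pericyte gene Pdgfrb, and at least 2 of the 5 markers Gja5, Bmx, Dkk2, Fbln5 and Mgp. Cells with 3 or more of the 6 aerocyte genes Car4, Ednrb, Fibin, Apln, Tbx2 and Chst1 were left out. The rule found 82 cells at 4 Gy and 72 at 0 Gy. Checked against markers outside the rule, these cells were a mixture. Those with Gja5, Bmx or Dkk2, the larger part, had higher levels of several arterial genes than the remaining endothelium, but not of all. Those with Fbln5 and Mgp alone mostly carried venous genes. They are therefore called arterial-marker cells here.

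The lungs came from female C57BL/6 mice, 8 weeks old, that had received 150000 HKP1 cells, a mouse lung adenocarcinoma line, into the tail vein. Mice were assigned by bioluminescence on day 6. The irradiated group received 4 Gy on 3 consecutive days (days 10 to 12) and the mock group 0 Gy, with 4 mice per treatment, and tissue was harvested 24 to 48 h after irradiation ended. Live cells were sorted by CD45 and profiled with 10x Genomics 3′ chemistry, with 1 library for each dose and sort. All mice carried the tumour cells, so no group shows the endothelium of a tumour-free lung.

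Arteries carry blood under pressure and their endothelium is set apart from that of capillaries and veins by Notch signalling, the connexins Gja4 and Gja5 and a wall rich in elastic fibres. Ionising radiation breaks DNA and stabilises the transcription factor p53, which switches on genes for cell cycle arrest (Cdkn1a), apoptosis (Bax), its own degradation (Mdm2) and secreted stress factors (Gdf15). In the lung, arterial endothelium lines the branches of the pulmonary artery, while general capillary cells and aerocytes line the alveoli.

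With 1 library per group no difference between doses has a replicate check, no test was made, and dose and library cannot be told apart. The 95% intervals given below cover counting error of the summed UMIs only, not the variation between cells, mice or libraries. The 4 Gy and 0 Gy CD45-negative libraries held 4313 and 5979 barcodes and 12448164 and 14885765 UMIs, and their highest mitochondrial share in a barcode was 10.6% and 10.4%. They shared 12 barcode sequences, and pairs among all 4 libraries shared 3 to 17. Levels are CPM, the UMIs of a gene over all UMIs of a class of cells in a library, scaled to a common total. The arterial-marker cells held 374608 UMIs at 4 Gy and 300348 at 0 Gy, with a median per cell of 3445 and 3095, against 1990 and 1822 in the remaining endothelium without aerocytes.

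Arterial-marker cells made up 2.07% of the 3961 endothelial barcodes at 4 Gy (exact interval 1.65 to 2.56%) and 1.34% of the 5375 at 0 Gy (1.05 to 1.68%). The ratio of these shares was 1.55 (1.11 to 2.15). The rule rests on detecting transcripts, and detection moves with depth. After each cell had been thinned to 1000 UMIs, with 146 and 367 other endothelial cells below that depth, it found 26 cells (0.733%) at 4 Gy and 27 (0.566%) at 0 Gy, a ratio of 1.30 (0.726 to 2.31). That interval holds both an equal share and the 1.55 found over all UMIs. With so few cells left, the thinned count cannot show whether the excess at 4 Gy depends on depth. Leaving out cells with a UMI of smooth muscle, fibroblast, epithelial or leukocyte markers left 40 cells at 4 Gy and 47 at 0 Gy. Their ratio of shares was 1.15 (0.738 to 1.80), an interval that again holds both an equal share and 1.55. The sorts hold what enzyme digestion and gating released, so these shares are not shares of the vessel wall.

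The rule's own markers are given as a description. Gja5, the connexin of arterial gap junctions, had a UMI in 59.8% of arterial-marker cells at 4 Gy and 48.6% at 0 Gy, against 2.45% and 2.17% of other endothelial cells. Bmx, a tyrosine kinase of arterial endothelium, was detected in 61.0% and 68.1%, against 1.37% and 2.02%. Fbln5, an elastic fibre protein, was detected in 57.3% and 51.4%, against 1.11% and 1.17%. Dkk2, a secreted Wnt modulator, was sparse, with 6 cells at 4 Gy and 4 at 0 Gy. Mgp, the matrix Gla protein that inhibits calcification, was detected in 59.8% and 70.8%, and a single 0 Gy cell held 559 of the 1298 UMIs in that library. Its summed level was 2314 CPM at 4 Gy and 4322 CPM at 0 Gy, but 2401 and 2324 CPM over the cells with Gja5, Bmx or Dkk2.

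Most cells sat at the threshold: 55 of 82 at 4 Gy and 48 of 72 at 0 Gy had exactly 2 markers, and 19 and 17 had 3. Cells just outside, with 1 marker, numbered 283 and 338. Ltbp4, a binding protein of latent TGF-beta in elastic fibres, stood at 473 CPM at 4 Gy and 525 CPM at 0 Gy in cells with 2 markers, and at 233 and 196 CPM in those with 1. Cdh13 (T-cadherin) had 123 and 42.9 CPM in cells with 2 markers, against 14.4 and 6.29 CPM with 1. Gpihbp1, which anchors lipoprotein lipase in capillaries, ran the other way, with 1122 and 964 CPM in cells with 2 markers and 1419 and 1881 CPM with 1. The venous gene Slc6a2 had 370 and 224 CPM in cells with 2 markers and 118 and 159 CPM with 1. Cxcl12 had 851 and 1321 CPM against 803 and 1018 CPM. The step across the threshold had the same direction at both doses for each of these genes, and was not one of arterial genes alone.

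Arterial-marker cells fell into cells with Gja5, Bmx or Dkk2, 65 at 4 Gy and 57 at 0 Gy, and cells with Fbln5 and Mgp as their only markers, 17 and 15. Of 19 measured arterial genes outside the rule, 9 were at least 1.5-fold higher in the first kind at both doses, 1 was lower and 9 were neither. Gja4, the other arterial connexin, had 476 CPM at 4 Gy and 588 CPM at 0 Gy in them, against 90.1 and 214 CPM in the Fbln5-Mgp cells. Cxcl12, the chemokine that arterial endothelium secretes, had 1389 and 1934 CPM against 67.5 and 326 CPM. Hey1, a Notch target, had 455 and 277 CPM against 67.5 and 71.3 CPM, and Efnb2, the ephrin that marks arteries, had 724 and 737 CPM against 101 and 143 CPM. Sema3g, a semaphorin of arteries, followed the same order, with 413 and 490 CPM against 56.3 and 71.3 CPM. Vegfc, a growth factor for lymphatic vessels, was the gene that ran the other way, with 80.5 and 49.5 CPM against 225 and 214 CPM. Eln, with 276 and 376 CPM against 293 and 734 CPM, was lower in the first kind by at least 1.5-fold at 0 Gy and not at 4 Gy. From the remaining endothelium without aerocytes the first kind stood apart less. That endothelium had 413 and 275 CPM of Hey1, 500 and 602 CPM of Efnb2 and 342 and 403 CPM of Sema3g. Its Cxcl12 was 447 and 820 CPM and its Gja4 168 and 367 CPM. Sox17 was lower in the first kind, at 241 and 138 CPM against 290 and 390 CPM.

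The Fbln5-Mgp cells carried higher levels of several venous genes. Slc6a2, the noradrenaline transporter of pulmonary venous endothelium, had 991 CPM at 4 Gy and 438 CPM at 0 Gy in them, against 42.0 and 54.4 CPM in the cells with Gja5, Bmx or Dkk2. Nr2f2, the transcription factor of venous identity, had 597 and 489 CPM against 42.0 and 104 CPM. Bst1 had 191 and 224 CPM against 52.5 and 59.3 CPM, and Car8 had 180 and 367 CPM against 129 and 74.2 CPM. Selp did not follow at 4 Gy, with 56.3 and 51.0 CPM against 150 and 44.5 CPM. At least 2 of the 5 venous genes Slc6a2, Bst1, Nr2f2, Car8 and Selp were detected in 11 of 17 Fbln5-Mgp cells at 4 Gy and 10 of 15 at 0 Gy, against 7 of 65 and 8 of 57 of the others. None of the 5 was detected in 45 of 65 and 38 of 57 cells with Gja5, Bmx or Dkk2. Summed over all cells of that kind, each of the 5 was still higher than in the remaining endothelium without aerocytes. That endothelium had 30.0 and 28.5 CPM of Slc6a2, 29.9 and 29.1 CPM of Nr2f2 and 10.4 and 8.4 CPM of Bst1. It had 11.2 and 11.6 CPM of Car8 and 2.81 and 0.404 CPM of Selp. Vwf, von Willebrand factor of larger vessels, was high in both kinds, with 3231 and 2690 CPM in Fbln5-Mgp cells and 2544 and 2661 CPM in the others.

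**Figure D1:**
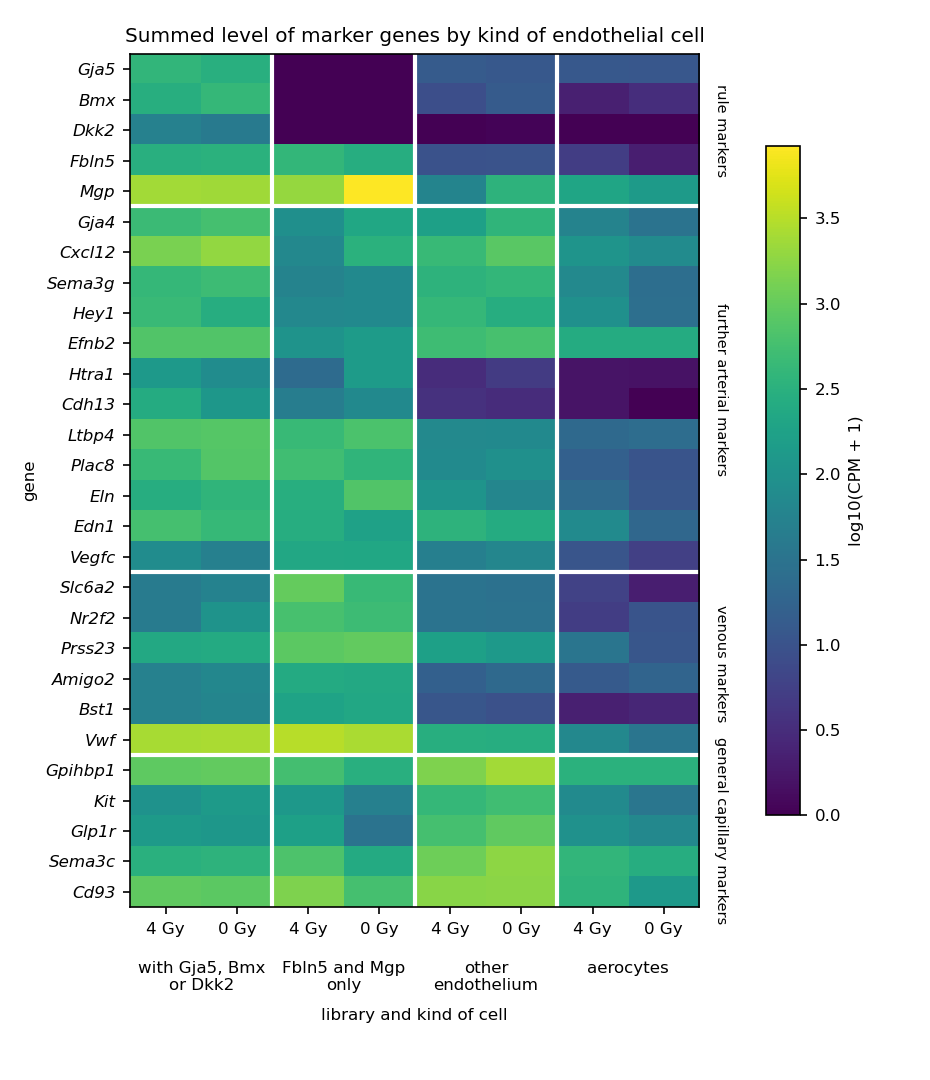
Heat map of the level of marker genes, as log10(CPM + 1), in the cells with Gja5, Bmx or Dkk2, the cells with Fbln5 and Mgp alone, the other endothelium without aerocytes and the aerocytes, each with 4 Gy left of 0 Gy. Cxcl12 (1389 and 1934 CPM) is brightest in the first kind, and Slc6a2 (991 and 438 CPM) is brightest in the second.

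Set against all other endothelial cells of the same library, 275 of 2872 genes with at least 20 UMIs in the arterial-marker cells of each library were at least 1.5-fold higher at both doses (9.58%), and 132 were lower (4.60%). The rule chose these cells, so the ratios describe them and carry no test. Of 17 measured arterial genes outside the rule, 8 were higher and 0 lower. They were Cdh13 (17.6-fold at 4 Gy and 9.60-fold at 0 Gy), the serine protease Htra1 (9.84 and 8.29), Ltbp4 (9.42 and 9.81), Plac8 (6.31 and 6.99), the elastin gene Eln (2.79 and 7.72), Cxcl12 (2.70 and 1.98), Vegfc (2.40 and 1.81) and the vasoconstrictor gene Edn1 (1.66 and 1.54). Measured fate genes of arteries were not among them: Sox17 stood at 0.812 and 0.336 times the level of the other endothelium, Dll4 at 1.10 and 0.932 times and Efnb2 at 1.24 and 0.988 times. Hey2, with 12 and 10 UMIs below the minimum, stood at 3.63 and 3.57 times.

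Venous genes were higher in 8 of 9 measured cases, and general capillary genes were lower in 4 of 8 and higher in 0. The median log2 ratio of the venous genes was 2.33 at 4 Gy and 2.47 at 0 Gy. For the arterial genes outside the rule it was 0.76 and 0.55. None of the 6 lymphatic genes reached 20 UMIs in both libraries, and Prox1, Ccl21a, Mmrn1 and Reln were at 0. The genes with the greatest ratios included Cytl1, a secreted cytokine-like protein, with 539 CPM at 4 Gy and 902 CPM at 0 Gy (25.7-fold and 44.5-fold). Adgrg6, an adhesion G protein-coupled receptor, had 395 and 366 CPM (14.1-fold and 13.7-fold). Atp13a3, a polyamine transporter, was 10.1-fold and 10.00-fold higher, with 595 and 524 CPM in the cells with Gja5, Bmx or Dkk2 against 22.5 and 51.0 CPM in the Fbln5-Mgp cells. Apoe (21.9 and 21.6) and the proteoglycan Bgn (9.66 and 13.1) were also among the 15 highest. Acta2, smooth muscle actin, was too, at 38.9-fold and 16.5-fold, but its UMIs lay in 9 cells at 4 Gy and 2 at 0 Gy.

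Markers of other cell types were present and differed between the doses. The summed fibroblast markers had 304 CPM at 4 Gy and 1791 CPM at 0 Gy, with at least 2 of them in 2 and 6 cells. Smooth muscle markers had 539 and 729 CPM (3 and 1 cells), epithelial markers 280 and 123 CPM (9 and 3 cells), mesothelial markers 342 and 293 CPM (2 and 3 cells) and leukocyte markers 40.04 and 29.97 CPM (1 and 0 cells). Cd3e, Nkg7, Laptm5, Coro1a, S100a8 and Foxj1 were at 0 in both libraries, and Myh11, Cnn1, Des and Actg2 were at 0 at 4 Gy. Erythroid genes had 40.04 CPM at 4 Gy and 9133 CPM at 0 Gy, and a single 0 Gy cell held 2715 of their 2743 UMIs. The part of these RNAs in the differences between doses was not tested beyond the values given beside them. Scrublet marked 0 of the arterial-marker cells at 4 Gy and 2 at 0 Gy as doublets.

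The main comparison of the design sets 4 Gy against 0 Gy. Of 5918 genes with at least 20 UMIs over both libraries in arterial-marker cells, 916 (15.5%) were at least 1.5-fold higher at 4 Gy and 700 (11.8%) at least 1.5-fold lower, and these shares are the background for each count below. The median log2 ratio over all of them was 0.02. The remaining endothelium without aerocytes, which held far more cells, had 10.5% higher and 6.51% lower of 15141 genes, and the aerocytes 11.6% and 5.56% of 10461. Over the cells with Gja5, Bmx or Dkk2 it was 15.7% and 12.2% of 4706.

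Many of the most extreme ratios rested on few cells. Of the 15 genes with the highest lower bound, 10 had UMIs in fewer than 10 arterial-marker cells of the library in which they were higher: Krt15 had 56 UMIs at 4 Gy and 0 at 0 Gy, all in 1 cell, and Ager, a gene of alveolar type I cells, had 84 and 2 UMIs, with those at 4 Gy in 2 cells. Of the 15 with the lowest upper bound, 13 did: Myh11 had 0 UMIs at 4 Gy and 33 at 0 Gy in 1 cell, and the collagen gene Col1a1 had 2 and 80, with those at 0 Gy in 7 cells. Genes spread over at least 20 arterial-marker cells of the library in which they were higher are therefore described below, and were picked out in this way after the values had been seen.

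**Figure D2:**
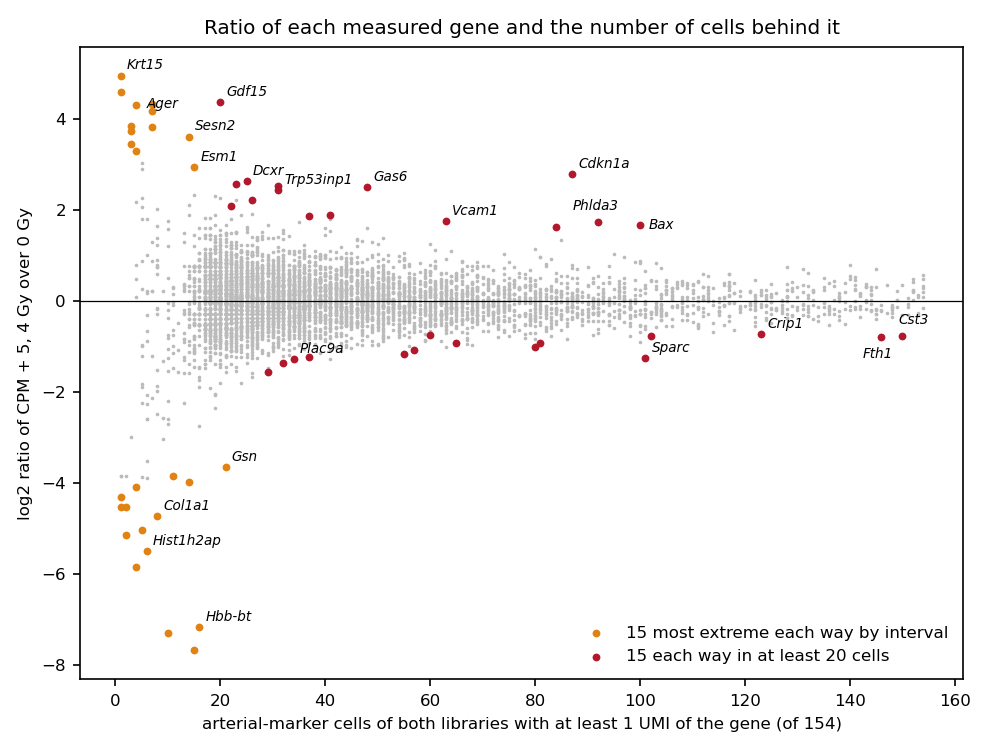
Each gene's log2 ratio of 4 Gy to 0 Gy in arterial-marker cells, with 5 CPM added (vertical axis), against the number of arterial-marker cells of both libraries with a UMI of it (horizontal axis). Orange points are the 15 genes each way with the most extreme interval and mostly lie at the left, in few cells, while dark red points are the 15 each way among genes spread over at least 20 cells.

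Genes of the p53 pathway were higher at 4 Gy. Of 34 listed targets 18 were measured, 15 of them (83.3%) at least 1.5-fold higher and 0 lower, with a median log2 ratio of 1.16. Their sum was 4944 CPM at 4 Gy and 1755 CPM at 0 Gy, a ratio of 2.82 (2.56 to 3.11). In the cells with Gja5, Bmx or Dkk2 the ratio was 2.69 (2.40 to 3.02), with 14 of 16 measured targets higher. In those of them that had none of the 5 venous genes it was 2.61 (2.27 to 3.02), with 10 of 11 higher. The remaining endothelium had 7332 CPM at 4 Gy and 2137 CPM at 0 Gy, a ratio of 3.43 (3.38 to 3.48), and the aerocytes had a ratio of 3.36 (3.26 to 3.47). The interval of the arterial-marker cells, which leaves out variation between cells, lay below both. With equal weight per cell their ratio was 2.46, outside that interval. Whether the response differed between these classes was not tested, with 1 library per dose.

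Cdkn1a, the p21 inhibitor of cyclin-dependent kinases, had 453 UMIs in 60 of 82 arterial-marker cells at 4 Gy and 51 UMIs in 27 of 72 at 0 Gy. This was 1209 against 170 CPM, a ratio of 7.12 (5.32 to 9.71), and 30 UMIs in the highest cell at 4 Gy against 5 at 0 Gy. At a matched depth of 1000 UMIs it was detected in 50.6% of 81 cells at 4 Gy and 15.7% of 70 cells at 0 Gy, and in the same cells unthinned in 72.8% and 38.6%. The remaining endothelium, thinned in the same way, had it in 70.6% and 24.6%. The promoters of 3 targets with higher levels at 4 Gy follow, to show where single units of the p53 motif lie near their starts. They are from RefSeq on GRCm38.p6, 5′ to 3′ on the gene's strand. Capitals mark each match to a single unit. A full site was counted only where 2 units lay within 13 bases of each other. Bax and Mdm2 had 1 unit each and no full site.

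Cdkn1a, chr17:29090866-29090977, plus strand, first match 73 bases before the start: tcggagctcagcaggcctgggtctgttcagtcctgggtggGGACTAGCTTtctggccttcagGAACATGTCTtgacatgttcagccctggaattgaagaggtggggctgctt
Bax, chr7:45467050-45467139, minus strand, match 201 bases before the start: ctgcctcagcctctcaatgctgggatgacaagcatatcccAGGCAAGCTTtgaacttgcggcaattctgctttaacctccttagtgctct
Mdm2, chr10:117710895-117710984, minus strand, match 186 bases before the start: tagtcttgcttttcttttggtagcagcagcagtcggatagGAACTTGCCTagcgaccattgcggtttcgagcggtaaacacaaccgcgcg

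The single unit, which reads alike on both strands, was searched in windows of 300 bases, from 250 before to 50 after each start. Of the 18 measured targets 17 had a window, and 8 of these genes held at least 1 unit. Counted by window, 8 of 24 (33.3%) held at least 1, against 8.36% of all 32851. Only Cdkn1a, 1 gene of the 17, had a full site, with 2 units within 13 bases of each other. Of all windows 0.0731% had a full site. A match is a run of letters and not a bound site.

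Bax, which opens the mitochondrial outer membrane in apoptosis, had 219 UMIs at 4 Gy and 54 at 0 Gy in arterial-marker cells, a ratio of 3.25 (2.40 to 4.47). Mdm2, the ubiquitin ligase that degrades p53, had 32 and 8 UMIs (3.21, 1.45 to 8.06). Phlda3, an inhibitor of Akt signalling, had 211 and 50 UMIs (3.38, 2.48 to 4.70). All of these were at least 3-fold higher at 4 Gy, as was Ephx1, an epoxide hydrolase, with 134 and 34 UMIs (3.16, 2.16 to 4.75). Trp53inp1, a stress-induced partner of p53, had 42 and 5 UMIs (6.73, 2.67 to 21.8).

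Gdf15, a secreted stress cytokine of the TGF-beta family, had 37 UMIs in 20 arterial-marker cells at 4 Gy and 0 UMIs at 0 Gy. Against a floor of 3 counts over the group, this was 9.89-fold higher, and the exact interval of the ratio began at 7.65. The remaining endothelium had 216 CPM at 4 Gy and 6.06 CPM at 0 Gy (35.6, 27.5 to 46.8). Sesn2, a sestrin that restrains mTORC1, had 21 UMIs in 14 cells and 0 UMIs. This was 5.61-fold higher against the same floor, with an interval that began at 4.18. Both genes were thus seen at 4 Gy alone at this depth.

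The other targets had smaller ratios. Ccng1 (cyclin G1) had 22 and 6 UMIs (2.94, 1.16 to 8.86), Rps27l had 132 and 53 (2.0, 1.44 to 2.80), Ei24 had 44 and 18 (1.96, 1.11 to 3.60) and the antiproliferative gene Btg2 had 138 and 67 (1.65, 1.23 to 2.25). Sesn1 (14 and 6 UMIs), Bbc3 (24 and 12) and Plk2 (65 and 34) passed 1.5-fold with intervals that included 1. Fas (1.47, 1.05 to 2.08), Polk (1.34, 0.622 to 3.00) and Sertad1 (1.23, 0.584 to 2.70) did not reach 1.5-fold. The ratio of Phlda3 was 6.61 (6.18 to 7.06) in the remaining endothelium and 2.99 (2.77 to 3.23) in aerocytes, so that the value of the arterial-marker cells lay nearer to that of aerocytes. For Cdkn1a it was 6.67 (6.43 to 6.92) in the remaining endothelium and 3.96 (3.76 to 4.17) in aerocytes. The 7.12 (5.32 to 9.71) of all arterial-marker cells lay nearer to the remaining endothelium. Over those with Gja5, Bmx or Dkk2 and none of the venous genes the Cdkn1a ratio was 5.01 (3.46 to 7.49). Epithelial markers, also higher at 4 Gy, had at least 1 UMI in 29 of 82 arterial-marker cells at 4 Gy and 13 of 72 at 0 Gy. Without any cell with a UMI of the smooth muscle, fibroblast, epithelial or leukocyte markers the summed p53 ratio was 2.74.

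**Figure D3:**
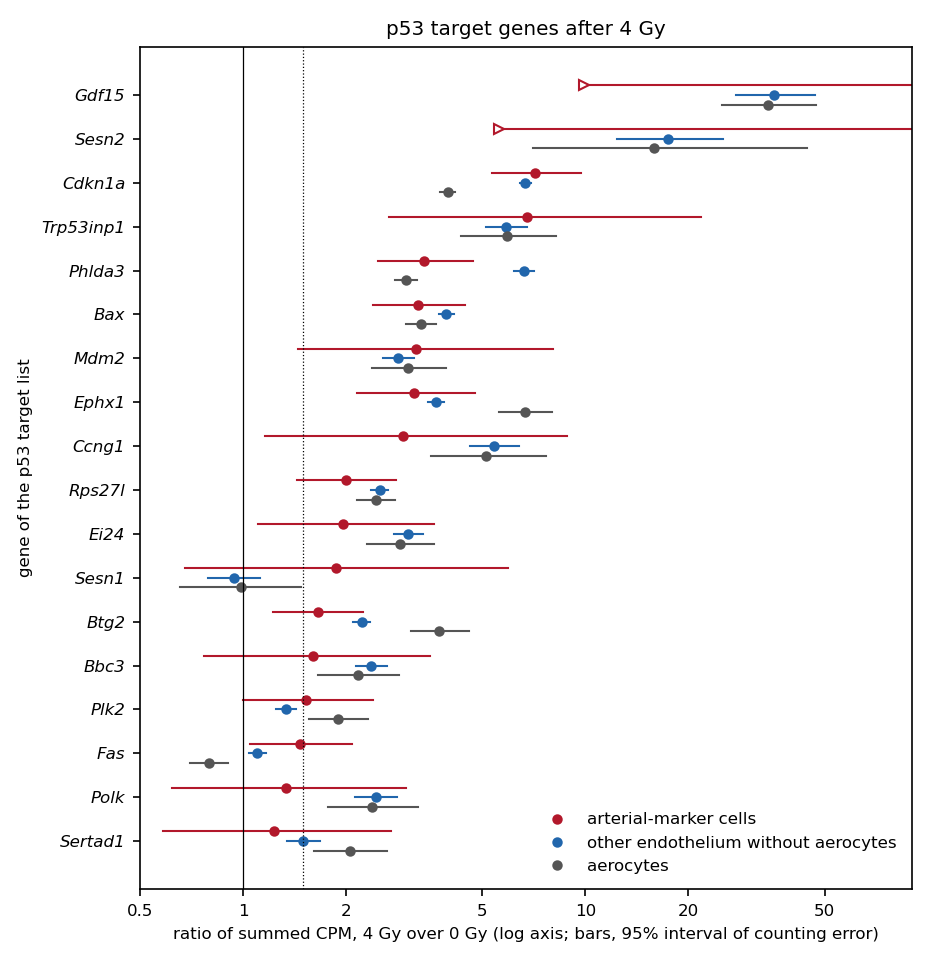
Ratio of 4 Gy to 0 Gy (log axis) for the 18 measured p53 targets in arterial-marker cells, the other endothelium without aerocytes and aerocytes, with 95% intervals of counting error. Open arrowheads are ratios against a floor of 3 counts for Gdf15 (9.89) and Sesn2 (5.61), which had no UMI at 0 Gy. They are not interval limits, which were 7.65 and 4.18 at the lower end. All 18 arterial-marker values lie right of 1, with Cdkn1a at 7.12 and Sertad1 lowest at 1.23.

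Genes of the circadian clock were also higher at 4 Gy, 8 of 11 measured (18 listed), with 0 lower and a median log2 ratio of 1.01. Their sum was 1006 CPM at 4 Gy and 529 CPM at 0 Gy, a ratio of 1.90 (1.58 to 2.30), and 2.25 (1.62 to 3.15) over the cells with Gja5, Bmx or Dkk2 and none of the venous genes. Tef, a PAR-family transcription factor driven by the clock, had 65 and 16 UMIs (3.26, 1.86 to 6.03). Its relative Dbp had 22 and 3 UMIs (5.88, 1.77 to 30.7), and the period gene Per3 had 51 and 13 (3.15, 1.69 to 6.30). Nr1d2 (REV-ERB beta) had 37 and 14 UMIs (2.12, 1.12 to 4.24) and Rora had 26 and 9 (2.32, 1.05 to 5.62). The ratios of Tef and Per3 in the remaining endothelium were 9.37 (7.95 to 11.1) and 7.88 (6.84 to 9.11). The hour of harvest is not in the labels, so it cannot be told apart from the dose.

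Of 19 measured genes of arterial identity, 6 were higher at 4 Gy (Sox17, Hey1, Jag1, Unc5b, Dll4 and Cdh13) and 1 was lower (Eln), with a median log2 ratio of 0.09. Gja4 had 144 UMIs at 4 Gy and 140 at 0 Gy, a ratio of 0.825 (0.649 to 1.05), against 0.458 (0.430 to 0.487) in the remaining endothelium. Cxcl12 had 403 and 423 UMIs (0.764, 0.665 to 0.878). Neither passed 1.5-fold over all UMIs, but both did in cells thinned to 1000 UMIs, at 0.511 (0.312 to 0.826) for Gja4 and 0.590 (0.461 to 0.753) for Cxcl12. Where the rule was applied after thinning they were 0.981 and 0.544, and without venous genes, in cells with Gja5, Bmx or Dkk2, 0.625 and 0.505. The remaining endothelium, thinned alike, had 175 CPM of Gja4 at 4 Gy and 407 CPM at 0 Gy. Hey1 had 136 and 63 UMIs (1.73, 1.27 to 2.37), Dll4, a Notch ligand, had 103 and 53 (1.56, 1.11 to 2.21) and Jag1, another, had 80 and 39 (1.64, 1.11 to 2.48). Sox17, a transcription factor of arterial fate, had 77 and 32 UMIs (1.93, 1.26 to 3.01), against 0.744 (0.707 to 0.783) in the remaining endothelium. In the thinned cells the Sox17 ratio was 1.04 (0.411 to 2.68) and the call ended, while that of Dll4 was 2.83 (1.41 to 6.16). Jag1 fell short with 3 of 5 markers, at 1.07. Cdh13 had 77 and 31 UMIs (1.99, 1.30 to 3.13), but 1.29 with Mgp left out of the rule and 4.15 (1.22 to 21.9) in the cells with Gja5, Bmx or Dkk2 and none of the venous genes. Of Hey1, Dll4, Jag1 and Sox17, over the cells with Gja5, Bmx or Dkk2 and none of the venous genes only Hey1 passed 1.5-fold (1.68, 1.17 to 2.44).

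Of 15 further measured genes of the Notch pathway and arterial fate, 3 were higher, 1 lower, and the median log2 ratio was 0.35. Notch4, the endothelial Notch receptor, had 55 UMIs at 4 Gy and 26 at 0 Gy (1.70, 1.05 to 2.82), but 0.999 over the cells with Gja5, Bmx or Dkk2 and none of the venous genes. The ligand gene Jag2 had 19 and 5 UMIs (3.05, 1.10 to 10.4).

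Genes for leukocyte adhesion were higher at 4 Gy in some cells. Vcam1, the ligand of leukocyte integrins, had 374 UMIs in 35 arterial-marker cells at 4 Gy and 88 UMIs in 28 cells at 0 Gy, or 998 against 293 CPM. The ratio was 3.41 (2.69 to 4.35), and 2.95 (2.28 to 3.86) without the highest cell of each library, which held 94 and 12 UMIs. It was 5.47 (3.99 to 7.67) in the cells with Gja5, Bmx or Dkk2, but 0.816 in the 31 and 39 of these with no UMI of another cell type's markers. In that subset the call ended and the direction turned, and the part of other cell types' RNA in it was not tested further. The remaining endothelium had a ratio of 1.32 (1.09 to 1.60). Icam1, another integrin ligand, had 23 and 6 UMIs (3.07, 1.22 to 9.23), and the colony-stimulating factor gene Csf1 had 45 and 18 (2.0, 1.14 to 3.68), but 0.652 in the same subset as for Vcam1. The whole list had 4 of 11 measured genes higher and 1 lower, with a median log2 ratio of 0.31.

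Genes of vessel growth and flow sensing came next. Of 9 measured VEGF and angiopoietin genes 4 were higher and 1 lower, with a median log2 ratio of 0.52 and a summed ratio of 1.38 (1.24 to 1.54). Esm1, endocan, had 80 UMIs in 10 cells at 4 Gy and 7 UMIs in 5 cells at 0 Gy (9.16, 4.25 to 23.5), with 36 UMIs in a single 4 Gy cell. Flt4, the receptor of Vegfc, had 25 and 6 UMIs (3.34, 1.34 to 9.96), and 2.12 (0.807 to 6.53) in the cells with Gja5, Bmx or Dkk2 and 1.83 in those without venous genes. Klf4, a flow-induced transcription factor, had 220 and 97 UMIs (1.82, 1.43 to 2.33), with 1.33 after thinning of the cells, and its relative Klf6 had 104 and 50 (1.67, 1.18 to 2.39), while 2 of the 10 measured genes of that list were higher and 1 lower. Klf2, the leading flow-induced factor of endothelium, had 582 and 368 UMIs (1.27, 1.11 to 1.45) and did not reach 1.5-fold.

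Of 13 measured genes of vascular tone 2 were higher and 0 lower. Nos3, the endothelial nitric oxide synthase, had 37 UMIs at 4 Gy and 14 at 0 Gy (2.12, 1.12 to 4.24), against 0.868 (0.712 to 1.06) in the remaining endothelium. Over the cells with Gja5, Bmx or Dkk2 and none of the venous genes its ratio was 1.09 (0.359 to 3.65), and the call ended. Npr3, the clearance receptor of natriuretic peptides, had 63 and 27 UMIs (1.87, 1.17 to 3.06). Edn1 had 190 and 103 UMIs (1.48, 1.16 to 1.90), just short of 1.5-fold. Of 17 measured TGF-beta and BMP genes 3 were higher and 0 lower. Bmp6 had 97 and 37 UMIs (2.10, 1.43 to 3.16), and Bmpr2, the BMP receptor mutated in hereditary pulmonary arterial hypertension, had 377 and 196 (1.54, 1.29 to 1.84). The ratio of Bmpr2 was 0.850 where the rule was applied after thinning. The stress gene Jun had 458 and 219 UMIs (1.68, 1.42 to 1.98), and 0.831 under the same alternative, while 2 of 18 measured immediate early and stress genes were higher and 1 lower. Of 11 measured junction genes 2 were higher and 0 lower.

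Matrix genes were split, with 6 of 30 measured genes higher and 8 lower at 4 Gy. Sparc, a collagen-binding matricellular protein, had 204 UMIs at 4 Gy and 391 at 0 Gy (0.418, 0.351 to 0.497). It was 0.516 (0.408 to 0.651) in the cells with Gja5, Bmx or Dkk2, and 1.02 in all arterial-marker cells without a UMI of the smooth muscle, fibroblast, epithelial or leukocyte markers. Fn1 (fibronectin) had 22 and 65 UMIs (0.271, 0.159 to 0.446), and 0.649 (0.347 to 1.21) in the cells with Gja5, Bmx or Dkk2. Without those of them that had a venous gene it was 3.60 (0.786 to 33.4), on 11 and 2 UMIs. These matrix levels lay beside the summed fibroblast markers, 968 CPM at 4 Gy and 3801 CPM at 0 Gy in Fbln5-Mgp cells and 98.0 and 816 CPM in the others. Eln had 105 and 148 UMIs, or 280 and 493 CPM, a ratio of 0.569 (0.439 to 0.735), against 1.71 (1.54 to 1.89) in the remaining endothelium. A single 0 Gy cell held 39 of the Eln UMIs, and the ratio was 0.736 (0.530 to 1.02) in the cells with Gja5, Bmx or Dkk2, short of the call. The direction turned in those of them without venous genes, at 1.27 (0.688 to 2.43), and where the rule was applied after thinning, at 1.5 (0.593 to 3.98).

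Antigen presentation genes of class II were lower in 3 of 6 and higher in 0 of 6 cases, with a median log2 ratio of -0.45 and a summed ratio of 0.676 (0.605 to 0.755). Cd74, the invariant chain, had 322 UMIs at 4 Gy and 406 at 0 Gy (0.636, 0.548 to 0.738). H2-Ab1 had 81 and 105 UMIs (0.619, 0.457 to 0.834) and H2-Eb1 had 59 and 84 (0.563, 0.397 to 0.795). In the cells with Gja5, Bmx or Dkk2, 0 of 5 measured genes passed 1.5-fold either way, with a median log2 ratio of -0.08. With each cell weighted equally Cd74 stood at 1.02 and H2-Ab1 at 1.10, and H2-Eb1 stood at 1.59 without the cells that had markers of other types, so that none of these 3 calls held under every alternative. Class I genes had 1 of 10 higher and 0 lower. Of 15 type I interferon genes 1 was higher and 3 lower, with a median log2 ratio of -0.06, and of 13 interferon gamma genes 4 were higher and 1 lower, with a median of 0.32.

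Proliferation genes were near the limit of detection: 4 of 24 listed genes reached 20 UMIs, and 3 were lower and 0 higher. Of these Stmn1, stathmin, had 65 UMIs at 4 Gy and 103 at 0 Gy (0.506, 0.365 to 0.697), but 1.40 with the cells thinned to 1000 UMIs, where the list's median log2 ratio was 0.47, against -0.76 over all UMIs. A single 0 Gy cell held 28 of the Stmn1 UMIs. Ube2c had 0 UMIs at 4 Gy and 20 at 0 Gy, 19 of them in a single cell. In the cells with Gja5, Bmx or Dkk2, 4 of 4 measured genes were lower, with a median log2 ratio of -0.99. In those of them without venous genes 0 of 2 were lower, with a median of -0.26. Detoxification and antioxidant genes were split, with 5 of 19 higher and 4 lower. Sod2, the mitochondrial superoxide dismutase, had 54 and 21 UMIs (2.06, 1.22 to 3.59), and Dcxr, dicarbonyl and L-xylulose reductase, had 33 and 3 (8.82, 2.77 to 44.9). Of 14 lipid handling genes 0 were higher and 2 lower.

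**Figure D4:**
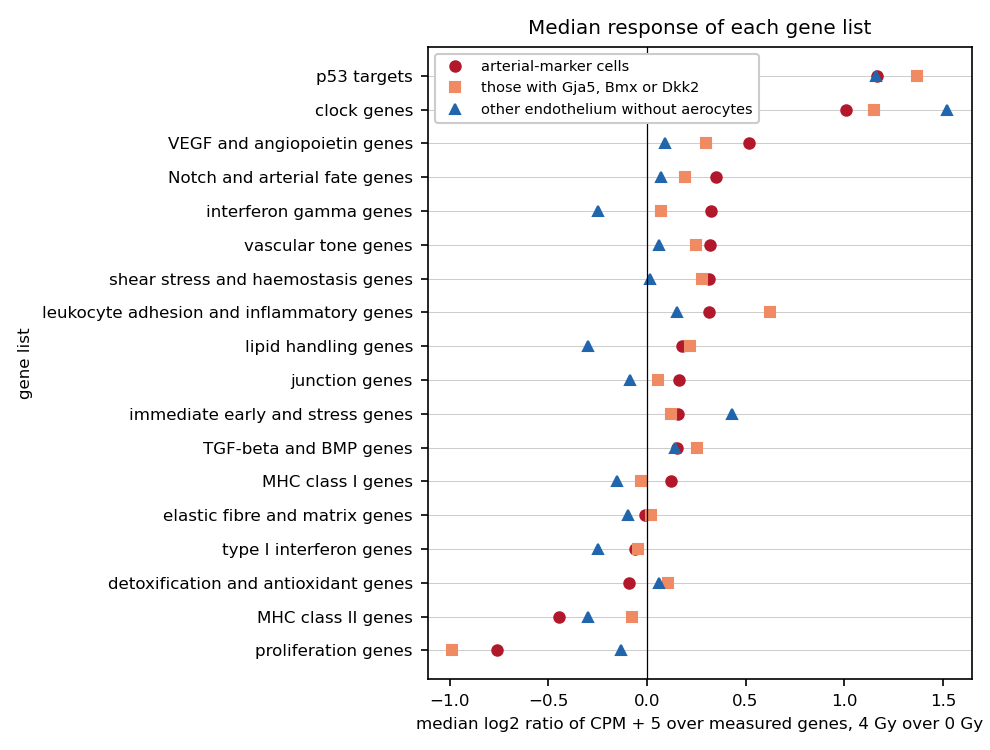
Median log2 ratio of 4 Gy to 0 Gy, with 5 CPM added, over the measured genes of each of the 18 lists (rows), in arterial-marker cells, in those with Gja5, Bmx or Dkk2 and in the other endothelium without aerocytes. The p53 targets (1.16) and the clock genes (1.01) have the highest medians in arterial-marker cells, and the proliferation genes (-0.76, on 4 measured genes) the lowest.

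Several genes outside the lists stood out among those spread over at least 20 cells. Gas6, the ligand of the TAM receptors, had 186 UMIs in 36 arterial-marker cells at 4 Gy and 25 UMIs in 12 cells at 0 Gy (497 against 83.2 CPM; 5.97, 3.92 to 9.46), and 7.78 (3.94 to 17.5) in the cells with Gja5, Bmx or Dkk2. The remaining endothelium had a ratio of 1.97 (1.77 to 2.19). Stk4, the Hippo kinase MST1, had 38 and 4 UMIs (7.62, 2.74 to 29.4), against 1.14 (1.06 to 1.23) in the remaining endothelium. Rnpep, an arginyl aminopeptidase, had 51 and 10 UMIs (4.09, 2.05 to 9.03), against 1.15 (1.02 to 1.29). Adgrl3, the adhesion receptor latrophilin-3, had 60 and 12 UMIs (4.01, 2.14 to 8.19), against 1.59 (1.52 to 1.67). Whether these ratios differ between the classes was not tested. Inka2, with 24 and 2 UMIs (9.62, 2.39 to 84.0), and Thyn1, with 30 and 4 (6.01, 2.12 to 23.5), were also higher in the remaining endothelium, at 19.5 (13.8 to 28.2) and 4.72 (4.08 to 5.49).

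On the lower side, Fth1, the ferritin heavy chain that stores iron, had 763 UMIs in 78 cells at 4 Gy and 1054 UMIs in 68 cells at 0 Gy, or 2037 against 3509 CPM (0.580, 0.528 to 0.638). The remaining endothelium had 0.874 (0.853 to 0.896). Among the cells with Gja5, Bmx or Dkk2 and none of the venous genes the ratio was 0.873, and the call ended, and it was 1.06 where the rule was applied after thinning. Cst3, the protease inhibitor cystatin C, had 517 and 706 UMIs (0.587, 0.523 to 0.659). Crip1, a LIM domain protein, had 415 and 550 (0.605, 0.531 to 0.689), but 1.12 in the same subset as for Fth1. Cytl1, among the genes that set the arterial-marker cells apart, had 202 and 271 UMIs (0.598, 0.496 to 0.720), 0.837 (0.671 to 1.05) in the cells with Gja5, Bmx or Dkk2 and 0.337 (0.176 to 0.623) in those of them without venous genes. Cst3 stayed past 1.5-fold in those cells, at 0.642 (0.562 to 0.733), but not among those without venous genes, at 0.718.

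Over the 45 cells at 4 Gy and 38 at 0 Gy that had Gja5, Bmx or Dkk2 and none of the venous genes, further ratios can be set beside those above. Gas6 was 6.55 (1.59 to 57.8), Vcam1 4.32 (2.74 to 7.10), Esm1 7.39 (3.42 to 19.0), Stk4 5.89 (1.81 to 30.4) and Rnpep 3.67 (1.40 to 12.2), and each stayed at least 1.5-fold higher at 4 Gy. The Gas6 ratio rested there on 20 UMIs at 4 Gy and 2 at 0 Gy. Its levels were 120 and 18.3 CPM, against 112 and 56.7 CPM in the remaining endothelium. Among the p53 targets Bax was 2.85 (1.88 to 4.47) and Phlda3 2.39 (1.57 to 3.74). Klf4 was 1.69 (1.18 to 2.46) and Npr3 2.07 (1.08 to 4.20). The calls ended there for Csf1 (1.38, 0.596 to 3.47), Jun (1.40, 1.12 to 1.75), Bmpr2 (1.30, 1.03 to 1.65), Sparc (0.753, 0.535 to 1.06), Cd74 (0.781, 0.608 to 1.01) and Stmn1 (0.705, 0.445 to 1.12).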

How the data were processed

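Each CD45-negative library was a deposited table of log2 values, cells by genes. Per the submitters' processing notes STAR, Partek, Seurat and the build mm10 were used, with roles and versions not given in the sources used here. In each table the deposited values behaved as log2(CPM + 1), and their steps gave whole UMI counts for 99.9993% to 99.9996% of values, within 0.02. The CD45-positive tables served only to count leukocytes: at least 2 rule markers were found in 5 of 8198 barcodes with Ptprc at 4 Gy and 1 of 4691 at 0 Gy. In the CD45-negative libraries they were found in 2 of 26 such barcodes at 4 Gy (7.69%, 0.946 to 25.1%). At 0 Gy it was 1 of 55 (1.82%, 0.0460 to 9.72%). With so few barcodes the background of the rule in these libraries is poorly known.

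All deposited barcodes were used. Members and gene lists were chosen with earlier results of these data known. For each class of cells a library's UMIs were added up, and the ratio of 4 Gy to 0 Gy has an exact conditional binomial 95% interval. A gene counted as higher or lower at 1.5-fold or more with at least 20 UMIs over both libraries. Medians of lists use 5 CPM added, and ratios to other endothelium 10 CPM added. Named genes were the 15 with the highest lower bound and the 15 with the lowest upper bound, up to 6 genes per list past 1.5-fold whose interval excluded 1, leading genes of a list that did not pass, the 15 genes highest over other endothelium, and all markers; a few genes that met the rule are not reported here. The same 15 each way among genes in at least 20 cells were added after the values were seen. Doublets were scored with Scrublet (0.8% per 1000 barcodes) and removed as an alternative only: its automatic threshold marked 2 barcodes at 4 Gy and 4 at 0 Gy, so the highest 149 and 286 scores were taken. Thinning drew 1000 UMIs per cell with seed 1. The interval and count functions were tested on simulated data. Python 3.11.15, NumPy 2.4.6, SciPy 1.17.1, scanpy 1.11.5 and matplotlib 3.10.9 were used.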

Additional observations from a re-analysis of the deposited data

Results flagged for a closer look

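The ratio of 4 Gy to 0 Gy passed 1.5-fold in opposite directions in arterial-marker cells and in the remaining endothelium without aerocytes for 18 genes, of which 2 had UMIs in at least 20 arterial-marker cells. Eln had 280 CPM at 4 Gy and 493 CPM at 0 Gy in arterial-marker cells, a ratio of 0.569 (0.439 to 0.735), against 1.71 (1.54 to 1.89) in the remaining endothelium. Tubb2a, a beta-tubulin, had 238 and 147 CPM, a ratio of 1.62 (1.12 to 2.38), against 0.562 (0.534 to 0.593). In the arterial-marker cells with Gja5, Bmx or Dkk2 both ended short of 1.5-fold, at 0.736 (0.530 to 1.02) for Eln and 1.16 (0.753 to 1.81) for Tubb2a. In those of them without venous genes both directions turned, to 1.27 (0.688 to 2.43) for Eln and 0.772 (0.452 to 1.33) for Tubb2a, each on the side of the remaining endothelium. The difference between the classes was not tested, because each dose had 1 library.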

How the results depend on the processing

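With 1 library per group no library could be left out. No paired analysis was possible because each group had 1 library. Of the values for counts, shares and main lists 96 stayed and 32 moved under 20 alternatives. The ratio of shares moved to 1.08 for cells with Gja5, Bmx or Dkk2 and no marker of other cell types. Settings below come in 1 order: 3 of 5 markers (27 and 24 cells), thinned cells (81 and 70), the rule after thinning (26 and 27), 5 UMIs, 100 UMIs, no other cell types' markers (40 and 47), Gja5, Bmx or Dkk2 without venous genes (45 and 38), and Gja5, Bmx or Dkk2 without other types' markers (31 and 39). Genes higher numbered 376, 211, 80, 2437, 78, 545, 465 and 448, and genes lower 350, 217, 50, 2090, 76, 466, 417 and 340. These settings hold fewer cells or UMIs, or another minimum, by construction. The p53 ratio was 2.20 with 3 of 5 markers, 2.41 without Mgp, 2.44 thinned, 1.98 with the rule after thinning and 2.46 with equal weight per cell. Of the p53 genes 7 of 9, 9 of 12, 7 of 8 and 3 of 3 measured were higher under the first 4 of those, 23 of 30 at 5 UMIs, 6 of 7 at 100 UMIs and 8 of 10 in the last subset. Arterial genes above other endothelium numbered 5 with 3 of 5 markers, with the rule after thinning and at 100 UMIs.

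Ratios past 1.5-fold that changed direction, for genes with at least 20 UMIs under the alternative, are given here, and the cause was not tested. With 3 of 5 markers Gpx1 was 1.32, H2-Ab1 1.52 and Isg15 2.21. With Gja5, Bmx or Dkk2 required Gsn was 2.93. Leaving Bmx out of the rule gave Isg15 1.76. Leaving Fbln5 out gave Gsn 1.55 and H2-Ab1 1.04. Leaving Mgp out gave Gsn 4.05, Gpx1 1.12 and Igfbp7 1.06. Thinned, Fabp4 was 1.46, H2-Ab1 1.30, S100a10 1.05, Stmn1 1.40 and the median log2 ratio of proliferation genes 0.47. With the rule after thinning Bmpr2 was 0.850, Crip1 1.14, Eln 1.5, Fth1 1.06 and Jun 0.831. With equal weight Cd74 was 1.02, Fabp4 1.19, H2-Ab1 1.10 and Selp 0.980. With no other cell types' markers Cd74 was 1.09, Fabp4 1.02, H2-Eb1 1.59, Igfbp7 1.68 and Sparc 1.02. With Gja5, Bmx or Dkk2 and no venous genes Crip1 was 1.12, Eln 1.27, Tubb2a 0.772, Gpx1 1.75, H2-Eb1 1.31, Igfbp7 1.13 and Notch4 0.999. Fabp4 there had no UMI at 0 Gy and was 4.58 against a floor of 3 counts, with an interval that began at 3.41. With Gja5, Bmx or Dkk2 and no other types' markers Cd74 was 1.07, Crip1 1.05, Csf1 0.652, Fabp4 1.78, H2-Eb1 2.05, Igfbp7 1.45 and Vcam1 0.816. The alternatives without venous genes, without other types' markers beside Gja5, Bmx or Dkk2, without the 0 Gy cell rich in haemoglobin and without each gene's highest cell were chosen after seeing the data. Of all ratios of the 132 single genes 1651 stayed, 235 moved and 43 reversed. A ratio that stayed within its main interval can still have lost its 1.5-fold call, so 1651 is not a number of calls that held. Depth limits most genes: a gene at the minimum of 20 UMIs has an interval that spans several-fold.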
